A study of Homo sapiens with 2 samples.

Results

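miR-1246 and miR-1290 are 2 of the 2038 mature miRNA names in small RNA profiles of FaDu (FadU in the labels), an established line from a hypopharyngeal squamous carcinoma. They were chosen by name, because both have been reported in tumour-initiating cells, and with their values in these libraries already known, so their levels and folds below are a description. The sphere library came from FaDu cells expanded as spheres in DMEM-F12 plus N2, EGF at 10 ng/ml and bFGF at 10 ng/ml, which the labels call sphere-derived cancer stem cells. The parental library came from FaDu cells in RPMI-1640 with 10% fetal bovine serum. Both media held 1% penicillin and streptomycin, and 1 µg of total RNA went into each library (TruSeq small RNA kit). Medium, serum, growth factors and growth form changed together, so their effects cannot be told apart. Each group is a single library, so there is no replicate check and no p-value is given.

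A miRNA is a short RNA that guides an Argonaute protein to messenger RNAs, mainly through its seed, bases 2 to 8, and lowers their output. Most miRNAs are cut from a hairpin by Drosha and Dicer. miR-1246 has been described as a p53 family target that acts on DYRK1A, and it is often abundant in extracellular vesicles. Both miRNAs have been linked to tumour-initiating cells of lung cancer. U2 snRNA, an abundant RNA of the spliceosome, can also give reads that carry the miR-1246 sequence.

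The 2 mature sequences are shown with the seed in capitals, because they look alike while their seeds differ. Both come from RefSeq (GRCh38.p14, minus strand), miR-1246 from chr2:176601024-176601042 and miR-1290 from chr1:18897078-18897096.
miR-1246: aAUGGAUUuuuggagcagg
miR-1290: uGGAUUUUuggaucaggga
Each is 19 nt long. No other mature sequence in the RefSeq table had either seed, and none shared a run of at least 10 bases with either, except that the 2 share one with each other. In GENCODE 29, miR-1290 lay within the gene bodies of ALDH4A1, a mitochondrial dehydrogenase of proline metabolism, and of AL080251.1, on the same strand and in no exon of either. miR-1246 overlapped no gene but its own.

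The shared run and its place in U2 are shown next, with the run in capitals, because it is the feature that the 2 miRNAs have in common. It covers 12 bases, positions 3 to 14 of miR-1246 and 1 to 12 of miR-1290. The RNU2-1 line gives bases 94 to 114 of the U2 transcript of that gene (GENCODE 29, chromosome 17, GRCh38, minus strand).
miR-1246: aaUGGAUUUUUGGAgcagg
miR-1290: UGGAUUUUUGGAucaggga
RNU2-1: aaUGGAUUUUUGGAgcaggga
All 19 bases of miR-1246 were found in RNU2-1, at bases 94 to 112. miR-1290 aligned to bases 96 to 114 with 1 difference, U13G, counted from the 5′ end of miR-1290 with its own base first. The 73 nt hairpin of miR-1246 is shown with the mature part in capitals, at bases 11 to 29, since it sets the same 19 bases in other flanks than U2 does.
miR-1246 hairpin: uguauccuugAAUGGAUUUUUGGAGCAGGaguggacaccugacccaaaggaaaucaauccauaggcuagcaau

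Across all GENCODE 29 transcripts, the miR-1246 sequence occurred without a mismatch in 20, of which 19 were annotated as U2 snRNA or its copies and 1 was MIR1246 itself. Of these 19, 13 lie on chromosome 17. A further 12 U2 transcripts held it with 1 mismatch. The miR-1290 sequence occurred without a mismatch in 1 transcript, MIR1290. With 1 mismatch it occurred in 24, of which 23 were U2 transcripts and 1 a retained-intron transcript of ISG20, an exonuclease. The annotation holds 90 U2 snRNA transcripts in all. Whether the mapping behind the deposited values allowed a mismatch is not given in the sources used here.

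The deposited unit is RPKM, reads per kilobase and per 1000000 reads, as the authors computed it. miR-1290 had 1657 RPKM in spheres and 4.82 RPKM in parental cells. The sphere value is high and the parental value lies under what 3 reads are worth, 20.3 RPKM for a 19 nt sequence there. miR-1246 had 297 RPKM in spheres and 16.7 RPKM in parental cells. Here too the sphere library is the high one, above its own 3-read value of 28.0 RPKM, while the parental value is under that library's.

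**Figure D1:**
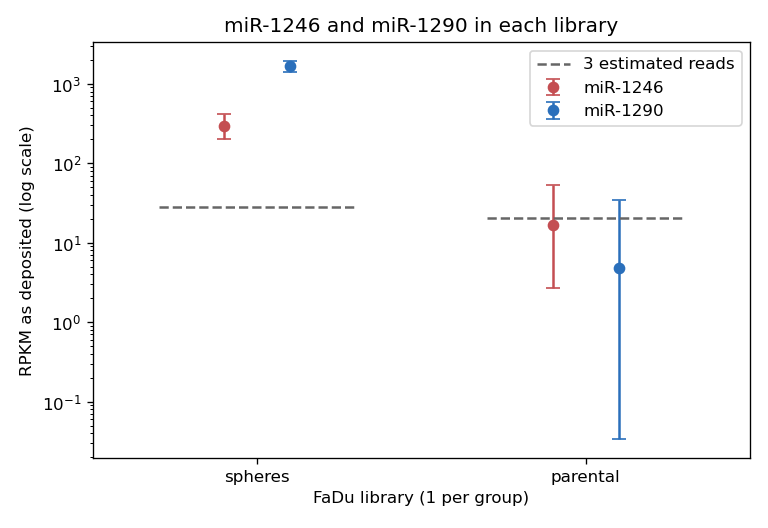
RPKM as deposited (log axis) of miR-1246 and miR-1290 in the sphere and the parental library, 1 library each. Bars are 95% intervals of counting error, and dashed lines mark 3 estimated reads of 19 nt. Both sphere points, 297 and 1657 RPKM, lie above the line of 28.0 RPKM, and both parental points, 16.7 and 4.82 RPKM, lie below the line of 20.3 RPKM.

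The reads behind these values can be estimated from the steps between low values. The commonest low value was 8.07 RPKM in spheres and 5.84 RPKM in parental cells. All 30 names at that value with a RefSeq length in spheres, and all 38 in parental cells, were 22 nt long. That value was taken as 1 read, which puts 5630022 reads behind the RPKM of the sphere library and 7782780 behind that of the parental library. At 19 nt, miR-1290 then had 177 reads in spheres and 0.71 in parental cells. miR-1246 had 31.8 reads in spheres and 2.47 in parental cells. The parental values are thus not whole reads. Of the values under 5 reads, 117 of 304 in spheres and 127 of 361 in parental cells were below 1 read. In spheres 18 of them were at 1/2 read, 12 at 1/3 and 7 at 1/4. In parental cells 20 were at 1/2 read, 5 at 1/3 and 6 at 1/4. The deposited values therefore hold fractions of reads, and how a read with several matching places was divided is not given in the sources used here. The reads of both miRNAs are weighted sums of this kind, and the intervals treat them as counts. By this estimate only part of the reads behind the RPKM lies on named miRNAs. The RPKM summed to 5509071 in spheres and 26530004 in parental cells, so that part was smaller in spheres. The reason for this was not tested.

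Shares are of the RPKM column sum, not of all reads behind the RPKM. miR-1290 took 0.0301% in spheres (95% exact Clopper-Pearson interval 0.0258% to 0.0348%) and 1.82e-05% in parental cells (1.27e-07% to 0.000129%). miR-1246 took 0.00539% in spheres (0.00368% to 0.00762%) and 6.29e-05% in parental cells (1.03e-05% to 0.000203%). The intervals of the libraries do not overlap for either miRNA. These intervals hold counting error alone and treat every estimated read as a separate molecule, PCR copies included. The comparison is between 2 libraries, not between conditions.

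In the order of abundance, miR-1290 stood at rank 92 of 672 miRNAs above 0 in spheres and at rank 763 of 903 in parental cells. miR-1246 stood at rank 152 in spheres and at rank 558 in parental cells. Both were thus in the upper part of the sphere order and in the long tail of the parental one. miR-1290 was the higher of the 2 in spheres. Its parental value was the lower one, but on 0.71 against 2.47 estimated reads, which cannot fix an order.

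**Figure D2:**
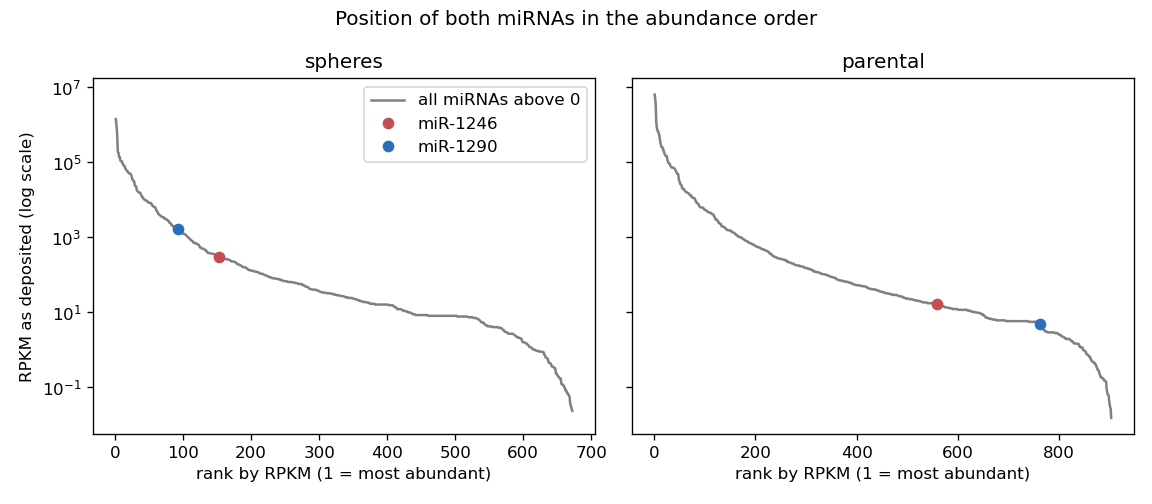
RPKM as deposited (log axis) against rank for all miRNAs above 0, in the sphere library on the left and the parental library on the right, with both miRNAs marked. miR-1290 and miR-1246 stand at ranks 92 and 152 in spheres, and at ranks 763 and 558 in parental cells.

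The levels beside them in spheres show how these ranks compare. The 3 measured miRNAs closest to miR-1290 in sphere level were miR-23b-3p, miR-429 of the miR-200 family, and miR-196b-5p of the HOX clusters. These had 1614 to 1694 RPKM in spheres and 4178 to 13724 RPKM in parental cells. The 3 closest to miR-1246 were miR-125a-3p, miR-152 and miR-100-3p, with 279 to 311 RPKM in spheres and 570 to 1903 RPKM in parental cells. Each of the 6 was lower in spheres as deposited, as were most measured miRNAs. After rescaling, miR-152 (log2 fold 1.37), miR-23b-3p (0.95), miR-429 (0.37) and miR-125a-3p (0.32) were higher in spheres, and miR-100-3p (-0.50) and miR-196b-5p (-0.82) were lower.

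For folds, each column was rescaled to sum to 1000000, because the deposited RPKM summed to 5509071 in spheres and 26530004 in parental cells, 4.82 times more. The 269 miRNAs that averaged 10 rescaled RPKM or more over the libraries are called measured. A name high in 1 library alone can pass this filter, and its direction is then partly set by the filter. The log2 fold compares (rescaled RPKM + 0.5) of spheres with that of parental cells. miR-1290 had 301 rescaled RPKM in spheres and 0.18 in parental cells, a log2 fold of 8.79. Since its parental value is below 1 read, the fold depends on the pseudocount. The counting interval of the ratio of its shares ran from 230 to 238096. miR-1246 had 53.9 rescaled RPKM in spheres and 0.63 in parental cells, a log2 fold of 5.59. The plain ratio of its shares was 85.8 (95% counting interval 24.4 to 550).

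On the deposited scale both stayed higher in spheres. miR-1290 had a log2 fold of 8.28, and the counting interval of its ratio ran from 47.8 to 49448. miR-1246 had a log2 fold of 4.11, and its plain ratio was 17.8 (5.07 to 114). The median of the 269 measured miRNAs was 0.02 after rescaling and -2.25 as deposited. The rescaled log2 folds of miR-1290 and miR-1246 were the highest and the second highest of the 269. With 0.18 and 0.63 rescaled RPKM in parental cells, both passed the filter only through the sphere library, which favoured their direction. As deposited, miR-663a, at 4.19, lay above miR-1246. At least 2-fold higher were 62 of the 269 (23%) after rescaling and 17 (6.32%) as deposited, while 51 (19%) and 214 (79.6%) were at least 2-fold lower. Both miRNAs are among the higher ones on either scale. Nothing is read from that count, since these folds were known when the 2 were chosen.

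**Figure D3:**
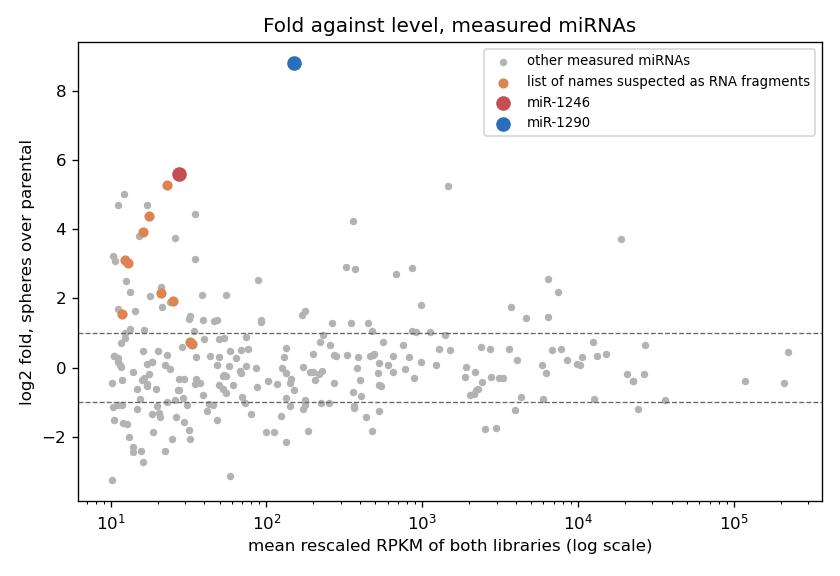
Log2 fold of spheres over parental cells against the mean rescaled RPKM of both libraries (log axis) for the 269 measured miRNAs, with dashed lines at 2-fold. miR-1290, at 8.79, and miR-1246, at 5.59, lie above all others, and the 10 other measured names of a list of suspected RNA fragments all lie above 0 on this scale, though 5 of them do not as deposited. miR-1290 and miR-1246 passed the filter only through the sphere library.

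The balance between the 2 miRNAs does not depend on the scaling, and they have the same length. The miR-1290 level was 5.58 times the miR-1246 level in spheres and 0.29 times it in parental cells. miR-1290 thus made up 84.8% of their summed reads in spheres (79.2% to 89.4%) and 22.4% in parental cells (0.15% to 84.2%). These intervals overlap, since the parental one rests on 3.18 summed reads. Overlap of intervals is not a test, and a difference in balance between the libraries was not tested. Together the 2 took 355 rescaled RPKM in spheres and 0.81 in parental cells.

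Among the miRNAs that could be compared, these 2 were the closest in sequence to an snRNA. Of the 269 measured names, 217 matched a RefSeq mature name, and each was compared with the 1900 annotated snRNA transcripts without gaps. miR-1246 had 0 mismatches, miR-1290 had 1, and the lowest number among the other 215 was 4, with a median of 7. Short sequences have fewer mismatches by construction. The 8 other measured miRNAs of up to 19 nt had 4 to 6. Among the 804 names above 0 in either library and with a sequence, no other name had fewer than 2. The U2 match of miR-1246 was known when the 2 were chosen.

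**Figure D4:**
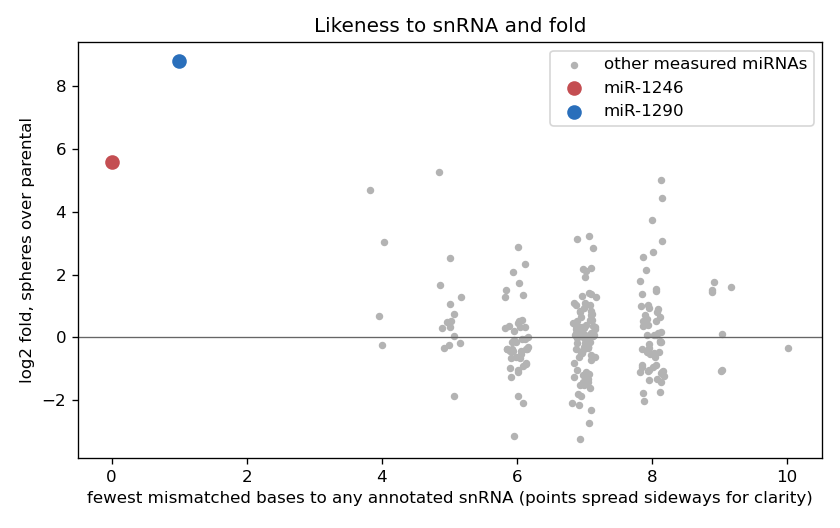
Log2 fold of spheres over parental cells against the fewest mismatched bases to any annotated snRNA, for 217 measured miRNAs with a RefSeq sequence. miR-1246 is at 0 mismatches and miR-1290 at 1, and all others are at 4 or more.

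Matches to other small RNAs were also few. snoRNA, rRNA, mitochondrial rRNA and tRNA and miscellaneous small RNA transcripts held 3 of the 217 without a mismatch, miR-3651, miR-4284 and miR-664a-3p, and 1 with 1 mismatch, miR-5701, which was named after its value was seen. All 4 were at least 2-fold higher in spheres after rescaling, against 23% of all measured miRNAs, with a median log2 fold of 1.85. As deposited they lay at -0.98 to 0.99, within 2-fold, against 6.32% of all measured miRNAs higher and 79.6% lower. miR-3651, miR-4284 and miR-664a-3p had 2.43 to 7.47 rescaled RPKM in parental cells and passed the filter only through the sphere library. miR-1246 and miR-1290 had 4 and 5 mismatches to these other small RNAs. Nuclear tRNAs were not among the transcripts searched.

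miR-1246 is on a list of names often suspected to be fragments of other RNAs. The origin of their reads was not tested. Of the 10 other measured names of the list, 7 had a sequence, of which 3 matched an annotated small RNA without a mismatch and 4 had 4 to 6 mismatches. Those 4 were miR-1260a, miR-1260b, miR-4454 and miR-4516, and nuclear tRNAs were not among the transcripts searched. Of 14 others in the tables, 10 were measured, of which 8 were at least 2-fold higher and 0 at least 2-fold lower, against 23% and 19% of all measured miRNAs. Their median log2 fold was 2.59, against 0.02 for all measured miRNAs. Of the 10, miR-4516, miR-3653, miR-4485, miR-4284, miR-4532, miR-3651 and miR-664a-3p had 0.70 to 7.47 rescaled RPKM in parental cells. These passed the filter only through the sphere library, which favoured their direction, so this count and median are a description. In parental cells miR-4454, miR-1260a and miR-1260b had 10.1 to 25.6 rescaled RPKM. As deposited, 4 of the 10 were higher and 2 lower, against 6.32% and 79.6% of all measured, with a median of 0.47 against -2.25. miR-4516 had 251 RPKM in spheres and 18.6 RPKM in parental cells, a rescaled log2 fold of 5.26. miR-4454 had 219 RPKM in spheres and 269 RPKM in parental cells, with a rescaled log2 fold of 1.92 and a deposited one of -0.29. The tRNA-like miR-1260b and miR-1260a had 228 and 225 RPKM in spheres, against 678 and 641 RPKM in parental cells. Their rescaled log2 folds were 0.69 and 0.74. The 14 others summed to 1937 RPKM in spheres and 2183 RPKM in parental cells, and the summed level of miR-1246 and miR-1290 was 1954 RPKM in spheres and 21.5 RPKM in parental cells. The part of other RNAs' fragments in the values of miR-1246 and miR-1290 was not tested.

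The miRNAs with the most similar fold were few and mixed. The 3 closest to miR-1246 by log2 fold over the 2 libraries were miR-4516, miR-4792 and miR-663a, which differed from it by 0.33, 0.35 and 0.57. miR-4792 had 15729.6 RPKM in spheres and 1985 RPKM in parental cells, and miR-663a had 133 RPKM in spheres and 6.81 RPKM in parental cells. The 3 closest to miR-1290 were miR-1246, miR-4516 and miR-4792, which lay 3.20, 3.53 and 3.54 below it. Of these, miR-4516 and miR-663a rest on about 2.46 and 1.17 parental reads, whereas miR-4792 rests on 340. In parental cells miR-4516 and miR-663a had 0.70 and 0.26 rescaled RPKM, and they passed the filter only through the sphere library.

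Measured names numbered near them had lower folds. Of 105 names whose number has 4 digits and starts with 12, 34 were above 0 in spheres and 54 in parental cells. Besides the 2, 6 were measured, of which 0 were at least 2-fold higher and 1 at least 2-fold lower, against 23% and 19% of all measured miRNAs. As deposited all 6 were at least 2-fold lower, against 79.6%. Their median log2 fold was -0.27, and -2.54 as deposited. The lower one, miR-1296, had 22.2 RPKM in spheres and 633 RPKM in parental cells, a log2 fold of -2.43. With 4.03 rescaled RPKM in spheres, miR-1296 passed the filter only through the parental library, which favoured its direction. miR-1269a had 112 RPKM in spheres and 1009 RPKM in parental cells, a log2 fold of -0.89. Names of this range below the filter went both ways, from miR-1266 at -3.19 to miR-1248 at 4.06 after rescaling.

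Other miRNAs tied to cancer stem cells are given next, by whether they were reported as high or low there. Of 7 others reported as high there, all measured, 3 were at least 2-fold higher and 0 at least 2-fold lower, against 23% and 19% of all measured miRNAs, with a median log2 fold of 0.46. As deposited, 0 were higher and 4 lower, against 6.32% and 79.6%, and the median was -1.81. The highest were miR-210, which hypoxia induces, at 2.91, and miR-135b-5p at 2.32, which had 0.65 and 0.14 as deposited. miR-135b-5p had 6.73 rescaled RPKM in parental cells. It passed the filter only through the sphere library, which favoured its direction. miR-21-5p, which represses the tumour suppressor PDCD4, had a log2 fold of 0.46. miR-221-3p, which targets the cell cycle inhibitor CDKN1B, had 1.47 and miR-222-3p, with the same seed, had -0.30. miR-10b-5p, linked to metastasis, had -0.28. Of 7 miRNAs reported as low in cancer stem cells, 5 were measured, 2 were at least 2-fold higher and 0 at least 2-fold lower, against the same 23% and 19%, with a median of 0.66. As deposited 1 was higher and 3 were lower, with a median of -1.61. The 2 higher ones were miR-203a, which targets TP63 in epidermis, at 3.70, and the p53 target miR-34a-5p at 2.51. let-7a-5p and miR-128 each had -0.44, and miR-200c-3p had 0.66.

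miR-1246 was also placed among miRNAs that respond to the p53 family. Of the 7 others, 4 were measured, 3 were at least 2-fold higher and 0 at least 2-fold lower, against 23% and 19% of all measured miRNAs. As deposited 0 were higher and 2 lower, against 6.32% and 79.6%. Their median log2 fold was 1.20, and -1.06 as deposited. miR-34a-5p had 829 RPKM in spheres and 688 RPKM in parental cells. miR-194-5p and miR-215 had log2 folds of 1.38 and 1.02, and miR-192-5p had 0.52. As deposited all but miR-34a-5p were negative, at -0.88, -1.25 and -1.75 for these 3.

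Markers of the labelled cell type were present in both libraries. The 4 epithelial miRNAs, miR-200c-3p, miR-141-3p, miR-205-5p and miR-203a, summed to 67703 rescaled RPKM in spheres and 27932 in parental cells, though to 372980 RPKM in spheres and 741026 RPKM in parental cells as deposited. They did not move together. miR-203a had 35056 rescaled RPKM in spheres and 2698 in parental cells, and miR-141-3p had 12264 and 2710. miR-200c-3p had 925 and 585, and miR-205-5p had 19458 and 21938. The 4 blood cell miRNAs summed to 21.9 in spheres and 0.52 in parental cells, with 1 at 0 in spheres (miR-223-3p) and 2 at 0 in parental cells (miR-150-5p and miR-142-3p). The 4 mesenchymal ones summed to 75.1 in spheres and 27.9 in parental cells, with 2 at 0 in parental cells (miR-145-5p and miR-214-3p). The endothelial pair summed to 445 in spheres and 192 in parental cells, the 3 muscle ones to 16.95 in spheres and 1.98 in parental cells, and the 3 neural ones to 658 in spheres and 660 in parental cells. As deposited the mesenchymal sum was 413 RPKM in spheres and 740 RPKM in parental cells, the endothelial one 2450 in spheres and 5099 in parental cells, and the neural one 3625 in spheres and 17515 in parental cells. The deposited blood sum was 120 RPKM in spheres and 13.9 RPKM in parental cells. The muscle one was 93.4 RPKM in spheres and 52.6 RPKM in parental cells, and no blood or muscle name was measured. The liver miR-122-5p, the muscle miR-206 and the neural miR-124-3p were listed at 0 in both libraries, and the muscle miR-1 in parental cells. The part of other cell types in the levels of miR-1246 and miR-1290 was not tested.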

How the data were processed

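The authors deposited 1 RPKM value per mature miRNA name for each library, per the file headers, with no counts. The hg19 build is named in the submitters' processing notes. Aligner, mismatch setting, miRNA release and handling of reads with several matches are each not given in the sources used here. Both miRNAs, the lists and the rule for other names were chosen with earlier results of these data known. That rule took the same seed or a run of at least 10 bases, and the 3 closest by log2 fold and by sphere level. It also took up to 4 members of each list, with more named for the cancer stem cell lists. Reads were estimated as RPKM times mature length, with the commonest low value as 1 read of 22 nt and a tolerance of 0.001 for whole or split reads. The 3 reads used to mark low values are a fixed floor, not a bound of the intervals of the shares. Mature and hairpin sequences came from RefSeq, where 1714 of 2038 names matched, and U2 and other transcripts from GENCODE 29, searched on the sense strand without gaps. Python 3.11.15, numpy 2.4.6, pandas 2.3.3, scipy 1.17.1 and matplotlib 3.10.9 were used. The fold and call steps were tested on simulated data.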

Additional observations from a re-analysis of the deposited data

How the results depend on the processing

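Both miRNAs stayed higher in spheres under every scaling and pseudocount run. The log2 fold of miR-1246 was 4.11 on the deposited scale, where the miRNA total is not equalised, and 3.39 with a pseudocount of 5, which exceeds its parental value. That of miR-1290 was 5.88 with a pseudocount of 5. The upper quartile, median of ratios, trimmed mean and total without the 20 most abundant miRNAs gave 5.39 to 5.65 for miR-1246 and 8.58 to 8.85 for miR-1290. Summing both, chosen after seeing the data, gave 8.08. The difference between them (3.20) ranged from 2.49 to 4.17. Of all measured miRNAs, 62 were at least 2-fold higher and 51 lower, against 17 and 214 as deposited, 193 and 180 with no filter, and 23 and 18 at a mean of at least 100. With counting intervals wholly past 2-fold, 45 and 17 were left. Taking every miRNA as 22 nt gave 205 sphere reads for miR-1290. The parental values, on 0.71 and 2.47 reads, limit both folds. No paired analysis was possible because each group holds a single library, which also leaves no replicate to omit.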
